A study of Rattus norvegicus with 10 samples.

Results

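The splicing factor genes examined here were the 38 genes whose symbols begin with Srsf and a digit, with Hnrnp or with Snrp, out of 17168 gene symbols in the table. They comprised 11 Srsf genes, 16 Hnrnp genes and 11 Snrp genes. All 38 passed the filter on low counts, as did 11791 genes in all. The animals were 10 female TgF344-AD rats aged 11 months, from which the left hippocampus was taken after perfusion and snap frozen. TgF344-AD is a rat line that carries human transgenes with familial Alzheimer's disease mutations under the mouse prion promoter, and both groups carried them, so the comparison was between treated and untreated transgenic animals only. The untreated group (5 animals) received ordinary chow. The RG2833 group (5 animals) received chow with RG2833, an inhibitor of the histone deacetylases HDAC1 and HDAC3, mixed in at 750 mg per kg, for 6 months from the age of 5 months. A blue food dye told the chows apart. The labels name no library batch.

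Splicing removes introns from pre-mRNA on the spliceosome, which is built from small nuclear ribonucleoproteins (snRNPs). Each of the U1, U2, U4 and U5 snRNPs contains a small nuclear RNA encircled by a ring of Sm proteins, together with proteins of its own, and the Snrp genes encode both kinds. SR proteins, encoded by the Srsf genes, bind exons and recruit the spliceosome, whereas many hnRNPs, encoded by the Hnrnp genes, bind nascent RNA and often oppose the use of a splice site. Neurons rely on these proteins for their many brain-specific exons and, in the case of several hnRNPs, for the transport of mRNA into dendrites.

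The promoters of 3 Sm ring genes are given because 2 of these genes, Snrpd2 and Snrpg, were the members that passed the test described below, while Snrpe belongs to the same ring and did not. Each sequence is the 150 bases just before the annotated transcription start on the gene's own strand, from RefSeq on the rat build GRCr8. Capitals mark CGGAAG, the core of the motif bound by ETS family transcription factors, read on either strand (CTTCCG on the opposite strand). The Snrpd2 sequence lies at chr1:87926259-87926408 on the plus strand and the Snrpg sequence at chr4:120369561-120369710 on the plus strand. The Snrpe sequence lies at chr13:47609252-47609401 on the minus strand.
Snrpd2: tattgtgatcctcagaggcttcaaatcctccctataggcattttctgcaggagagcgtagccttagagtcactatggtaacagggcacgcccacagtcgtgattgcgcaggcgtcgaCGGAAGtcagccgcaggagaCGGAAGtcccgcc
Snrpg: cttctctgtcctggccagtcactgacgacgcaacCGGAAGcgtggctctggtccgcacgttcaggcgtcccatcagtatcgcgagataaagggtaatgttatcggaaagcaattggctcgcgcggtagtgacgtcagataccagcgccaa
Snrpe: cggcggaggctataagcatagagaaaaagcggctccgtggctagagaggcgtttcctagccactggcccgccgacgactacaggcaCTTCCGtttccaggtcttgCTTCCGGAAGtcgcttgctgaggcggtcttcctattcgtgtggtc

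Snrpd2 held the motif at 2 places in this window, Snrpe at 3 with 2 of them overlapping on opposite strands, and Snrpg at 1. The motif was therefore present in promoters of the genes that passed the test and of a gene that did not. A search of the 250 bases before the start of every gene, on both strands, found CGGAAG in 6 of the 7 Sm ring genes measured, Snrpn being the exception. It was found in 8 of 11 Snrp promoters (72.7%), in 7 of 11 Srsf promoters (63.6%) and in 2 of 16 Hnrnp promoters (12.5%). It was found in 14.7% of all 27457 promoters in RefSeq's table and in 26.3% of the 8826 promoters of tested genes. The CCAAT box, searched as CCAAT, was found most often in the Hnrnp family, in 12 of 16 Hnrnp promoters (75.0%), 5 of 11 Snrp promoters (45.5%) and 4 of 11 Srsf promoters (36.4%), against 34.3% of all promoters and 35.0% of those of tested genes. The TATA box, searched as TATAAA, was found in 5 of the 38 promoters (13.2%), against 13.1% of all promoters and 6.25% of those of tested genes. These matches describe the letters of the windows and were not tested against the treatment difference.

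RG2833 was compared with no treatment by edgeR's quasi-likelihood test on all genes, with p-values adjusted by the Benjamini-Hochberg method over the 11791 genes tested, and a gene passed, or was called, where the adjusted p was under 0.05. Of the 38 splicing factor genes 2 passed, Snrpd2 and Snrpg, and both were lower in the RG2833 animals. This share of members, 5.26%, lay close to the 5.08% of all tested genes that passed in either direction. In all, 2.67% of tested genes passed as lower and 2.41% as higher, and no splicing factor gene was among the latter. No Srsf gene and no Hnrnp gene passed. At an unadjusted p under 0.05 the count was 10 of 38 (26.3%), against 24.5% of all tested genes, with 8 lower and 2 higher. In bulk tissue, fewer cells of a type and less RNA per cell cannot be told apart.

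The estimates were small. The log2 fold change (RG2833 over untreated) was below 0 for 24 members and above 0 for 14, with a median of -0.04, against -0.0035 over all tested genes. Its median absolute size was 0.11 in the members and 0.16 over all tested genes. Standard errors (SE) were also smaller, with a median of 0.09 against 0.12. The groups did not overlap for 7 of the 38 members (18.4%), that is, every animal of one group lay above every animal of the other, against 7.27% of all tested genes. Of these, 6 were lower in the RG2833 animals (background 3.47%), namely Srsf3, Hnrnpa3, Hnrnpk, Snrpd2, Snrpg and Snrpb2. Hnrnpul1 alone was higher without overlap (background 3.8%). Apart from Snrpd2 and Snrpg, none of these 7 exceeded 0.25 in absolute log2 fold change.

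**Figure D1:**
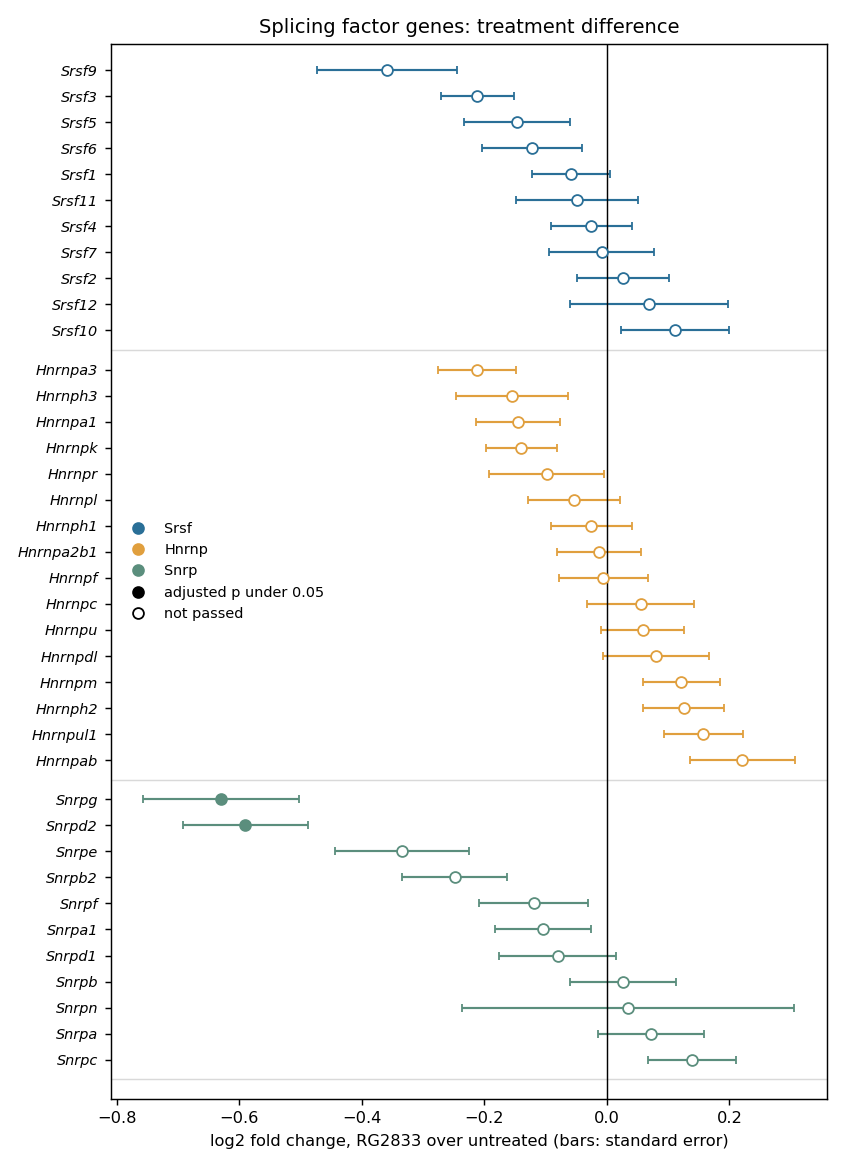
Log2 fold change of all 38 splicing factor genes, RG2833 over untreated, with bars for the standard error (5 animals per group); rows are genes grouped by family and filled circles mark an adjusted p under 0.05. Snrpg and Snrpd2 are the only filled circles, at -0.63 and -0.59, and the Srsf and Hnrnp genes lie between -0.36 and 0.22.

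The Sm ring held both genes that passed. Ring proteins enter the snRNP as preformed groups (SmD1 with SmD2, SmE with SmF and SmG, and SmB with SmD3), and Snrpd2 encodes SmD2. Values are CPM, counts relative to the size of the library, after TMM scaling, which brings libraries to a common level on the assumption that the bulk of genes stay put. Snrpd2 was at 81.1, 72.2, 78.4, 61.3 and 58.1 CPM in untreated animals 1 to 5 and at 47.9, 50.8, 41.7, 48.6 and 44.2 CPM in RG2833 animals 1 to 5. Every RG2833 animal was below every untreated animal. The group means were 70.2 ± 10.2 CPM (SD, n = 5) and 46.6 ± 3.68 CPM (SD, n = 5), a level 33.6% lower. The log2 fold change was -0.59 ± 0.10 (SE), with an edgeR adjusted p of 0.0121. Between 403 and 846 reads per library stood behind these values.

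Snrpg, which encodes SmG, was at 32.4, 32.6, 27.6, 26.3 and 21.2 CPM in untreated animals 1 to 5 and at 19.5, 19.2, 14.8, 19.6 and 17.5 CPM in RG2833 animals 1 to 5. The groups again did not overlap, although untreated animal 5 lay within 2 CPM of the highest RG2833 animal. Mean levels were 28.0 ± 4.74 CPM and 18.1 ± 2.03 CPM (SD, n = 5 each), 35.4% lower with RG2833. The log2 fold change was -0.63 ± 0.13 (SE; edgeR adjusted p = 0.0225), from 143 to 326 reads per library. The gene table lists 8 pseudogene copies (symbols with a -ps suffix) of Snrpg and 3 of Snrpd2, so reads of near-identical copies could have been divided between loci in the authors' counting.

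Snrpd2 passed whichever single animal was left out, with adjusted p between 0.00313 and 0.0460. Both genes lost their call in a fit with the ribosomal RNA share of the library as a covariate, where both stood at -0.31 (adjusted p = 0.9999 each). They also lost it with 1 surrogate variable, Snrpd2 at -0.48 (adjusted p = 0.209) and Snrpg at -0.60 (adjusted p = 0.234). Snrpg passed in 4 of the 10 fits that left out 1 animal. Its adjusted p was 0.0515 without untreated animal 1 and 0.0567 without untreated animal 3. It was 0.0502, 0.0568, 0.0628 and 0.0702 without RG2833 animals 1, 2, 3 and 5.

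Snrpe, which encodes SmE, was at 37.8, 33.7, 32.0, 26.6 and 25.3 CPM in the untreated animals and at 26.3, 24.9, 24.7, 23.4 and 23.7 CPM in the RG2833 animals. Untreated animal 5 lay below RG2833 animal 1, so the groups overlapped. Its log2 fold change was -0.33 ± 0.11 (SE) and did not pass (adjusted p = 0.0895). Snrpe passed without untreated animal 4 (adjusted p = 0.0389) or untreated animal 5 (adjusted p = 0.0373), fits that called 13.1% and 7.61% of all tested genes. It also passed in a DESeq2 Wald test (adjusted p = 0.0494), which called 10.9% of all tested genes. The remaining ring genes had estimates nearer 0. SmF, encoded by Snrpf, enters the ring together with SmE and SmG, and its gene stood at -0.12 ± 0.09 (adjusted p = 0.431), with means of 33.4 ± 3.86 and 30.8 ± 1.78 CPM. Snrpd1, which encodes the SmD1 partner of SmD2, stood at -0.08 ± 0.09 (adjusted p = 0.636), with means of 45.9 ± 5.37 and 43.4 ± 4.05 CPM. Snrpb stood at 0.03 ± 0.09 (adjusted p = 0.881), with means of 40.0 ± 4.62 and 40.7 ± 2.003 CPM. Genes whose products assemble as a pair or a trio thus had unequal estimates, although the differences between genes were not tested. The gene for SmD3 was not listed under the symbol Snrpd3 among the genes counted.

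**Figure D2:**
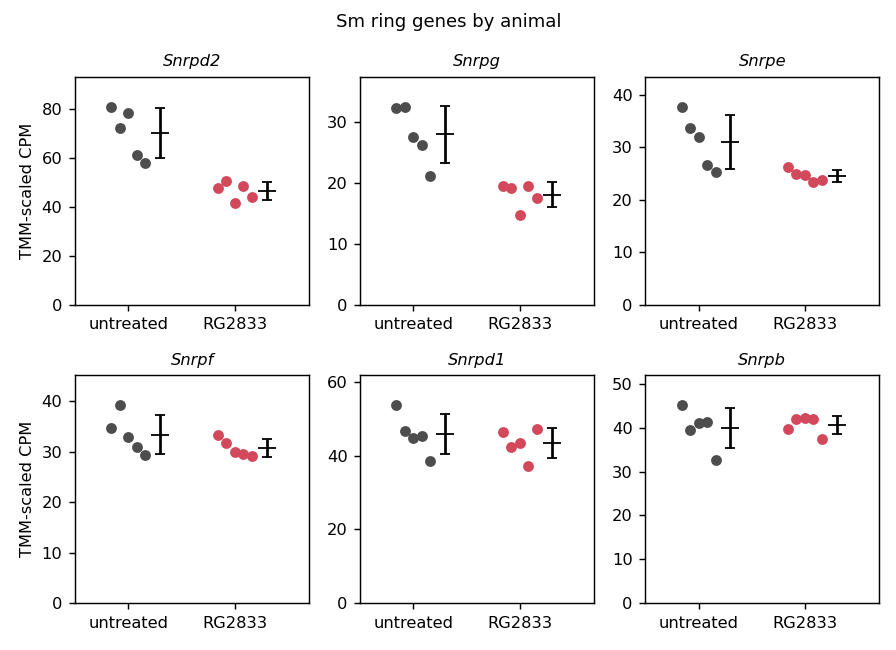
TMM-scaled CPM of 6 Sm ring genes in each of the 5 untreated (grey) and 5 RG2833 (red) animals, drawn in the order of their replicate numbers from left to right, with the group mean and SD at the right of each group. The groups are apart for Snrpd2 and Snrpg and overlap for Snrpe, Snrpf, Snrpd1 and Snrpb.

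Snrpn encodes SmN, which takes the place of SmB in neurons, and lies in an imprinted domain. It was at 9.36 ± 2.39 CPM in the untreated and 9.61 ± 3.74 CPM in the RG2833 animals (SD, n = 5 each). The log2 fold change was 0.04 ± 0.27 (SE; adjusted p = 0.9496), and the coefficient of variation of 39.0% in the RG2833 animals was the highest of any member in either group. Snurf shares a transcript with Snrpn and was listed separately at 1214 ± 115 and 1262 ± 73.4 CPM (log2 fold change 0.06 ± 0.08, adjusted p = 0.707). The division of reads between these symbols is uncertain, so the Snrpn level is too.

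The spread of the Sm ring was wider among the untreated animals, and so was that of all tested genes. The median coefficient of variation over all tested genes was 14.96% untreated and 10.02% with RG2833. Differences in spread were not tested. The level of the ring without Snrpn was summarised in each animal as the mean over 6 genes of log2 CPM centred per gene. It was 0.34, 0.25, 0.18, 0.05 and -0.13 in untreated animals 1 to 5 and -0.07, -0.09, -0.21, -0.16 and -0.18 in RG2833 animals 1 to 5. Untreated animals thus spanned 0.475 log2 units and RG2833 animals 0.141, and untreated animal 5 lay within the RG2833 range. Untreated animal 5 was the lowest untreated animal in all 6 genes, and untreated animals 1 and 2 were the highest in 4 and 2 of them, so the 6 genes ranked the untreated animals in a similar way. Among the RG2833 animals none was the highest in more than 2 of the 6. The difference between group means was -0.28 for the ring, -0.17 for all 11 Snrp genes, -0.07 for the Srsf genes and 0.00024 for the Hnrnp genes. These scores were not tested. The ring score is a subgroup that holds both called genes, and its difference came mainly from Snrpd2, Snrpg and Snrpe, whose estimates are given above.

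**Figure D3:**
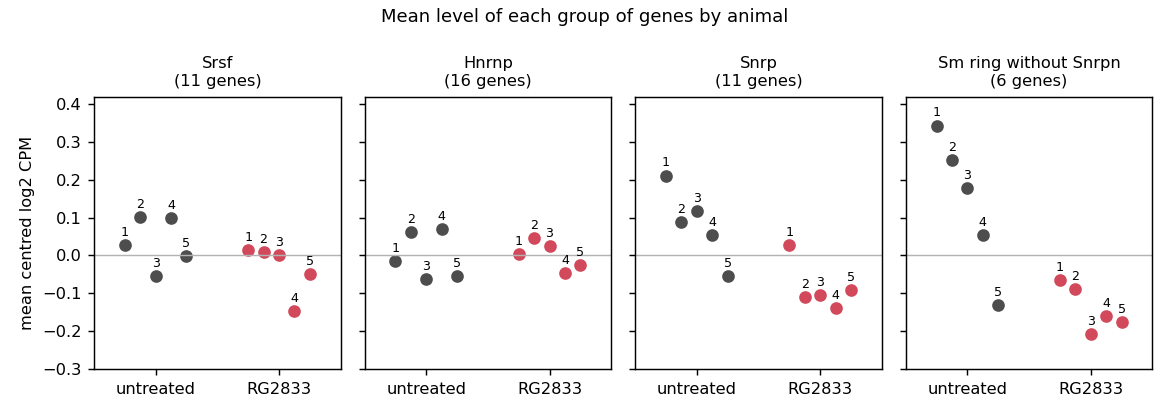
Mean over genes of centred log2 CPM in each animal (points, numbered by replicate) for the Srsf, Hnrnp and Snrp genes and for the Sm ring without Snrpn. Untreated animals fan out from 0.34 to -0.13 in the Sm ring panel, where untreated animal 5 lies among the RG2833 animals, and the groups overlap in all 4 panels.

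The proteins specific to 1 snRNP did not pass. Snrpb2 encodes U2-B″, which binds the U2 small nuclear RNA. It was at 27.6, 22.9, 26.9, 23.0 and 23.4 CPM in the untreated animals and at 22.1, 21.6, 19.9, 20.5 and 19.9 CPM in the RG2833 animals. The groups did not overlap, with less than 1 CPM between them, and the log2 fold change of -0.25 ± 0.09 (SE) had an adjusted p of 0.101. Snrpa1, encoding the U2-A′ partner of U2-B″, stood at -0.10 ± 0.08 (adjusted p = 0.432).

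Both U1 genes had estimates above 0. Snrpc encodes the U1-C protein, which helps U1 to recognise the 5′ splice site. Its levels were 44.0, 43.1, 41.0, 42.4 and 36.6 CPM in the untreated animals and 45.1, 48.3, 46.4, 46.1 and 41.8 CPM in the RG2833 animals. RG2833 animal 5 lay among the untreated animals, and the log2 fold change of 0.14 ± 0.07 (SE) did not pass (adjusted p = 0.256). Snrpa, which encodes the U1-A protein, stood at 0.07 ± 0.09 (adjusted p = 0.645).

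No SR protein gene passed in the edgeR test. Of the 11 Srsf genes, 2 had an unadjusted p under 0.05, Srsf3 and Srsf9, both with estimates below 0, against 24.5% of all tested genes. A DESeq2 Wald test called the same 2, and 10.9% of all tested genes. The family had 8 estimates below 0 and 3 above, a median of -0.05 and a range of -0.36 to 0.11. Srsf3 encodes the smallest SR protein, which also serves as an adaptor for mRNA export. It was at 99.2, 104, 95.2, 95.9 and 102 CPM in untreated animals 1 to 5 and at 86.7, 88.0, 79.9, 90.5 and 83.1 CPM in RG2833 animals 1 to 5. The groups did not overlap, and the means of 99.2 ± 3.72 and 85.6 ± 4.19 CPM (SD, n = 5 each) gave an estimate of -0.21 ± 0.06 (SE; edgeR adjusted p = 0.0605). Srsf3 has 10 pseudogene copies in the gene table.

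Srsf9, which encodes a short SR protein related to SRSF1, had the most negative estimate of the family. It was at 19.6, 19.0, 18.1, 14.6 and 15.2 CPM in the untreated animals and at 14.1, 14.8, 14.4, 11.7 and 12.3 CPM in the RG2833 animals. Untreated animals 4 and 5 were lower than the other 3, and untreated animal 4 lay within the RG2833 range. The log2 fold change was -0.36 ± 0.11 (SE; adjusted p = 0.0833). Without untreated animal 4 both genes passed, Srsf9 at -0.41 (adjusted p = 0.0352) and Srsf3 at -0.22 (adjusted p = 0.0432). That fit called 13.1% of all tested genes.

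Srsf5 and Srsf6 encode SR proteins with paired RNA recognition motifs. Srsf5 was at 263, 257, 216, 265 and 220.2 CPM in the untreated animals and at 203, 221, 251, 206 and 222 CPM in the RG2833 animals, overlapping widely (-0.15 ± 0.09, adjusted p = 0.313). Srsf6 was at 97.6, 106, 96.0, 113 and 97.5 CPM in the untreated animals and at 95.5, 97.6, 104, 78.9 and 93.2 CPM in the RG2833 animals (-0.12 ± 0.08, adjusted p = 0.379). The groups overlapped for both.

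The highest Srsf estimate was that of Srsf10, whose product represses splicing when dephosphorylated, as after heat shock. It was at 19.3, 22.4, 19.5, 23.5 and 22.8 CPM in the untreated animals and at 24.3, 25.1, 22.3, 22.4 and 22.0 CPM in the RG2833 animals. The groups overlapped, at 0.11 ± 0.09 (SE; adjusted p = 0.461). The other 6 had adjusted p from 0.606 to 0.962. These were Srsf1, the first SR protein described, at -0.06, Srsf11 at -0.05, Srsf4 at -0.03, Srsf7 at -0.0084, Srsf2, a marker of nuclear speckles, at 0.03, and Srsf12 at 0.07.

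The Hnrnp genes balanced around 0, with 9 estimates below and 7 above, a median of -0.0098 and a range of -0.21 to 0.22. None passed in the edgeR test. An unadjusted p under 0.05 was reached by 4 of 16, 2 in each direction, a share near the 24.5% of all tested genes. A DESeq2 Wald test called 2, Hnrnpa3 and Hnrnpk, a share near its 10.9% of all tested genes. Hnrnpa3, of the hnRNP A/B group, was at 478, 536, 495, 519.5 and 475 CPM in untreated animals 1 to 5 and at 417, 444, 443, 434 and 423 CPM in RG2833 animals 1 to 5. The groups did not overlap, and the means of 501 ± 26.4 and 432 ± 12.1 CPM (SD, n = 5 each) gave -0.21 ± 0.06 (SE; edgeR adjusted p = 0.0708). Hnrnpa1, its best-known relative and a repressor of exon inclusion, was at 302, 319, 289, 318 and 286 CPM and at 262, 282, 298, 253 and 275 CPM. Its groups overlapped (-0.15 ± 0.07, adjusted p = 0.218), and the gene table lists 51 pseudogene copies of it, the most of any member.

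Hnrnpk encodes a poly(C)-binding protein with KH domains. It was at 419, 421, 421, 431 and 427 CPM in the untreated animals and at 386, 402, 382, 385 and 367 CPM in the RG2833 animals. The untreated coefficient of variation of 1.23% was the lowest of any member. Although the groups did not overlap, the log2 fold change was only -0.14 ± 0.06 (SE; adjusted p = 0.163). Hnrnpk has 7 pseudogene copies.

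The highest Hnrnp estimates were those of Hnrnpab and Hnrnpul1. Hnrnpab, whose product binds transport signals in dendritic mRNA, was at 241, 208, 229, 246 and 209 CPM in the untreated animals and at 289.9, 295, 257, 237 and 241 CPM in the RG2833 animals. RG2833 animals 4 and 5 lay among the untreated animals, and the estimate was 0.22 ± 0.09 (SE; adjusted p = 0.136). Hnrnpul1, an hnRNP U relative with a role in the response to DNA breaks, was at 152, 173, 154, 171 and 163 CPM in the untreated animals and at 175, 175, 193, 181 and 183 CPM in the RG2833 animals. The highest untreated value (173.2 CPM) lay just under the lowest RG2833 value (174.8 CPM), and the log2 fold change was 0.16 ± 0.06 (SE; adjusted p = 0.158).

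Of the 4 genes labelled A/B here, Hnrnpa3 had the most negative Hnrnp estimate and Hnrnpab the most positive, and Hnrnpa2b1 stood at -0.01. Apart from Hnrnpab, the 3 others under this label had estimates below 0. Hnrnpm (0.12), Hnrnph2 (0.13), Hnrnpdl (0.08), Hnrnpu (0.06) and Hnrnpc (0.06) were above 0 without passing. Hnrnph3 (-0.15), Hnrnpr (-0.10), Hnrnpl (-0.05), Hnrnph1 (-0.03) and Hnrnpf (-0.0060) were below. The adjusted p of these 11 ran from 0.2503 to 0.967. The gene for hnRNP D is listed under its older symbol Hnrpd, outside the naming rule, at 189 ± 13.5 and 169 ± 8.15 CPM (-0.16 ± 0.07, adjusted p = 0.173).

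**Figure D4:**
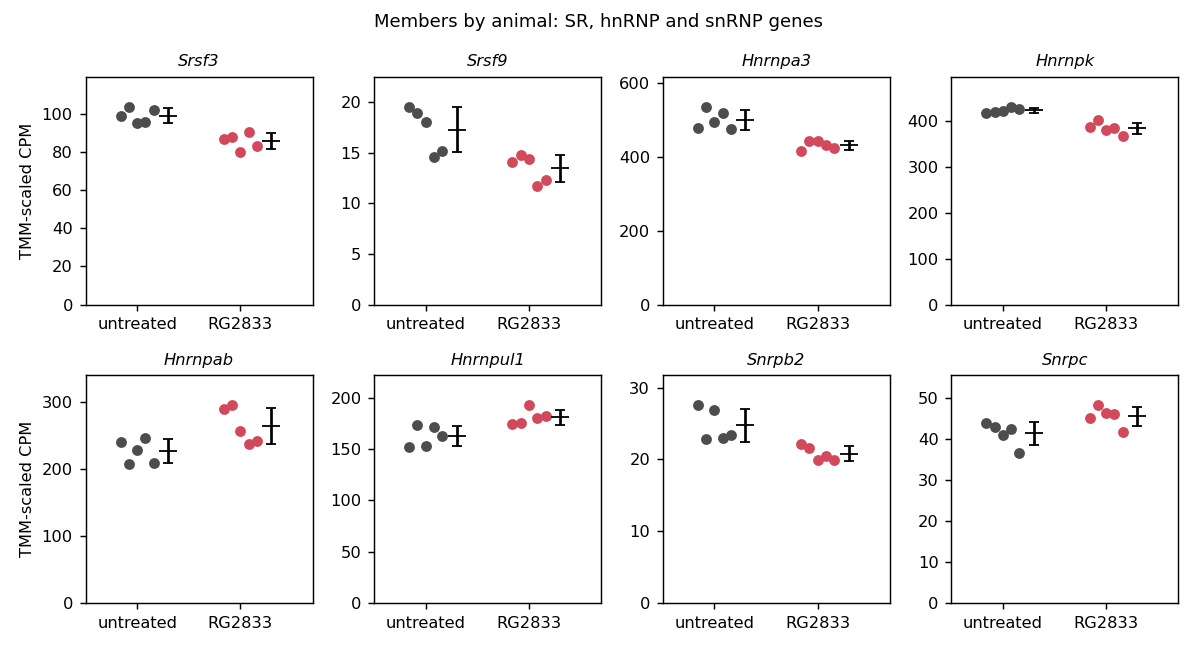
TMM-scaled CPM per animal (grey, untreated; red, RG2833; 5 animals each, with mean and SD) of 8 members whose adjusted p did not pass. The groups do not overlap for Srsf3, Hnrnpa3, Hnrnpk, Snrpb2 and Hnrnpul1, and overlap for Srsf9, Hnrnpab and Snrpc.

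The median spread of the splicing factor genes was below that of all tested genes, a comparison that was not matched for expression level. The median coefficient of variation over the 38 was 8.64% in the untreated and 5.85% in the RG2833 animals, against 14.96% and 10.02% over all tested genes. In the untreated animals it was 6.49% for the Hnrnp genes, 8.08% for the Srsf genes and 11.6% for the Snrp genes. In the RG2833 animals it was 5.02%, 8.60% and 6.53%, so the Srsf genes varied most there and the Snrp genes most among the untreated.

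Splicing factor genes are also short, and the treatment difference varied with gene length. The genomic span, from the GRCr8 gene table, had a median of 9.77 kb in the members and 24.6 kb over the tested genes that have one (91.7%). Family medians were 7.47 kb for Srsf, 11.9 kb for Hnrnp and 9.55 kb for Snrp. The median log2 fold change of all tested genes was -0.08 for spans under 5 kb, -0.04 from 5 to 10 kb, -0.01 from 10 to 20 kb, -0.0017 from 20 to 50 kb and 0.05 over 50 kb. Under 5 kb 6.64% of genes passed as lower and 1.89% as higher, whereas over 50 kb the shares were 0.854% and 2.56%. No splicing factor gene spanned more than 50 kb. Snrpd2 spans 3.23 kb, Snrpg 7.59 kb and Snrpe 13.1 kb. With the span trend removed, an alternative chosen after seeing the data, Snrpd2 stood at -0.51 (adjusted p = 0.00557) and Snrpg at -0.59 (adjusted p = 0.0133), and they remained the only members called, against 6.24% of the 10808 genes with a span.

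**Figure D5:**
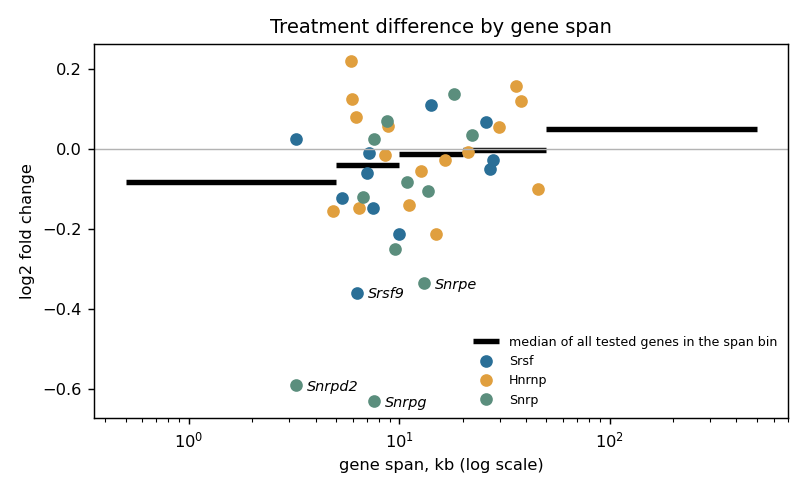
Log2 fold change of the 38 splicing factor genes against genomic span in kb (log axis), coloured by family, with black lines for the median of all tested genes in 5 span bins. The bin medians run from -0.08 to 0.05, and Snrpd2, Snrpg, Snrpe and Srsf9 lie well below the line of their bin.

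Libraries held between 8764245 and 11311652 rounded counts, and the least counted member in any library had 53. Ribosomal RNA loci took a share of the counts that was 2.70% to 5.36% in the untreated and 1.13% to 1.96% in the RG2833 libraries, without overlap, so that share and the treatment cannot be told apart by grouping. With it as a covariate no member passed and 2 genes of the whole table did, and with 1 surrogate variable no member and 5 genes did. On the first principal component (35.7% of the variance) untreated animal 4 lay among the RG2833 animals. Without that animal 1556 genes passed, 13.1% of those tested, and among them 5 of the 38 members, 13.2%.

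Marker genes of the cell types in the tissue were present in every library except for Folr1, a choroid plexus marker at 0 in 1 library. Summed markers of excitatory neurons were at 4132 to 5673 CPM untreated and 5647 to 6553 CPM with RG2833, with a median log2 fold change of 0.50 and all 6 above 0. Those of microglia were at 336 to 530 and 336 to 430 CPM (median -0.20; 1 of 6 called, Aif1, at -0.74), and those of endothelial cells at 180 to 273 and 161 to 181 CPM (median -0.35, 5 of 5 below 0). Choroid plexus markers ranged from 6.95 to 2455 CPM untreated and from 6.49 to 46.9 CPM with RG2833 (median -1.81, 3 of 3 tested below 0). In untreated animal 1 Ttr was at 2381 CPM against 3.799 to 14.8 CPM in untreated animals 2 to 5 and 3.82 to 38.4 CPM in the RG2833 animals. Clic6 was at 23.6 CPM there and at 0.0927 to 4.65 CPM in untreated animals 2 to 5, and Kcne2 at 9.15 and at 2.22 to 3.796 CPM. The RG2833 animals were at 0.286 to 3.41 CPM for Clic6 and at 1.03 to 1.99 CPM for Kcne2, so all untreated animals lay above all RG2833 animals for Kcne2 and not for Ttr or Clic6. The same animal was the highest untreated animal in 4 of the 6 Sm ring genes, and without it Snrpd2 stood at -0.53 (adjusted p = 0.0294) and Snrpg at -0.57 (adjusted p = 0.0515). Astrocyte, oligodendrocyte, oligodendrocyte precursor and inhibitory neuron markers had medians of 0.06, 0.10, -0.26 and -0.15. None of the markers other than Aif1 passed, and the part of cell composition in the splicing factor values was not tested.

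Other spliceosome proteins, outside the naming rule, were read from a list of 61 genes, 55 of them tested. Of these 2 were called lower and 2 higher, against 2.67% and 2.41% of all tested genes, with a median log2 fold change of 0.02. Lsm5 encodes a protein of the LSm ring, which encircles U6 RNA as the Sm ring does the other small nuclear RNAs. It was at 8.92, 12.3, 12.7, 10.8 and 10.7 CPM in the untreated animals and at 5.15, 5.08, 5.68, 8.38 and 6.59 CPM in the RG2833 animals. The groups did not overlap, and Lsm5 fell, at -0.85 ± 0.16 (SE; edgeR adjusted p = 0.0183). Of the 7 genes of the nuclear LSm ring (Lsm2 to Lsm8), 6 had estimates below 0 and the median was -0.22. Below 0 were 5963 of all 11791 tested genes, and in the whole list 34 of the 55 were above 0. The LSm ring was not a list of its own but a subgroup that holds a called gene. Its genes span 2.42 to 14.6 kb, and tested genes of such spans had medians below 0. Lsm7 at -0.27, Lsm3 at -0.24 and Lsm2 at -0.22 did not pass, and Lsm8 was at 0.27.

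The other 3 called genes belong to factors that recognise the branch point. Sf3b5, a small subunit of SF3B, was at 78.7, 75.8, 77.6, 73.3 and 65.6 CPM untreated and at 56.2, 63.2, 57.4, 61.7 and 57.6 CPM with RG2833 (-0.33 ± 0.07, adjusted p = 0.0260). Sf3a2, a subunit of SF3A, was at 61.9, 55.4, 49.7, 58.5 and 51.1 CPM untreated and at 76.0, 72.1, 66.9, 75.8 and 68.0 CPM with RG2833 (0.38 ± 0.08, adjusted p = 0.0231). Sf1, the branch point binding protein, was at 216, 234, 215, 249 and 231 CPM untreated and at 267, 279.5, 269, 259 and 283 CPM with RG2833 (0.25 ± 0.07, adjusted p = 0.0496). None of the 3 had overlapping groups, and 1 was lower and 2 were higher. Their calls were less firm than that of Snrpd2. Leaving out 1 animal, Lsm5 and Sf3a2 passed in 5 of 10 fits, Sf3b5 in 4 and Sf1 in 1, with adjusted p up to 0.0568, 0.0683, 0.0773 and 0.128. All 4 lost their call with the ribosomal RNA covariate and with 1 surrogate variable, and Sf3b5 and Sf1 also with the replicate block. Sf3b5 spans 0.713 kb and stood at -0.17 (adjusted p = 0.0995) with the span trend removed.

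None of the 18 genes for proteins that assemble the Sm ring, among them the SMN complex and the PRMT5 methylosome, passed in the edgeR test, against 5.08% of all tested genes. At an unadjusted p under 0.05 there were 2, and the DESeq2 Wald test called 1, Gemin2. Estimates were above 0 for 5 of the 18, against 49.4% of all tested genes, and the median was -0.11. Gemin2, which holds the ring proteins before the RNA joins them, stood at -0.42 ± 0.12 (adjusted p = 0.0640), with means of 9.72 ± 1.24 and 7.28 ± 0.370 CPM. Gemin6 at -0.30 (adjusted p = 0.118) and Wdr77, a methylosome subunit, at -0.17 (adjusted p = 0.212) came next. Gemin2 passed without untreated animal 5 (adjusted p = 0.0246), a fit that called 7.61% of all tested genes.

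Among 18 SR protein kinases, phosphatases and an importer, 1 was called, a share near the 5.08% of all tested genes. At an unadjusted p under 0.05 there were 5 (24.5% of all tested genes). The DESeq2 Wald test called 3, Clk4, Srpk1 and Srpk3 (10.9% of all tested genes). Srpk3 stood at -1.54 ± 0.59 (SE; edgeR adjusted p = 0.131), with untreated animal 2 at 14.2 CPM and the other untreated animals at 1.21 to 4.02 CPM. Srpk1, a cytoplasmic kinase that sends SR proteins to the nucleus, was at 33.7, 36.9, 37.6, 44.7 and 45.6 CPM untreated and at 49.8, 54.5, 49.4, 50.2 and 50.5 CPM with RG2833. The groups did not overlap and Srpk1 rose by 0.36 ± 0.09 (SE; adjusted p = 0.0408), although it passed in only 2 of the 10 fits that left out 1 animal. Its call was also lost with library totals (adjusted p = 0.0562), the replicate block (0.0816), the ribosomal RNA covariate (0.9999) and 1 surrogate variable (0.354). The median of the list was -0.0083. Clk4, a nuclear SR protein kinase, stood at -0.38 ± 0.12 (adjusted p = 0.0888) and Cdk12, which phosphorylates RNA polymerase II, at 0.43 ± 0.14 (adjusted p = 0.0928). Clk4 passed in the DESeq2 Wald test (adjusted p = 0.0479). Cdk12 passed without untreated animal 4 (adjusted p = 0.0356), a fit that called 13.1% of all tested genes. Cdk12 stood at 0.057 with the ribosomal RNA covariate and at 0.24 with 1 surrogate variable.

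Of 61 tested regulators of splicing in other families, 3 were called, all higher, with a median of 0.05. Of all tested genes 5.08% were called in either direction and 2.41% were called higher. Elavl3, a neuronal Hu protein, was at 125 ± 10.5 CPM untreated and 161 ± 9.12 CPM with RG2833 without overlap (0.36 ± 0.07, adjusted p = 0.0225). Rbfox3, the NeuN antigen of mature neurons, was at 98.4 ± 25.2 and 147 ± 10.6 CPM (0.57 ± 0.14, adjusted p = 0.0400), and untreated animal 4, at 138 CPM, lay within the RG2833 range. Rbm38 was at 7.87 ± 0.997 and 11.5 ± 1.78 CPM without overlap (0.55 ± 0.14, adjusted p = 0.0410). Elavl3 passed in 6 of the 10 fits that left out 1 animal and Rbfox3 and Rbm38 in 2 each. All 3 calls were also lost with the replicate block, the ribosomal RNA covariate and 1 surrogate variable, and with the ribosomal RNA covariate Rbfox3 stood at 0.17, Rbm38 at 0.23 and Elavl3 at 0.47. Elavl3 and Rbfox3 are neuronal genes. Of the neuron markers given above, 6 of 6 excitatory ones had estimates above 0 and 5 of 6 inhibitory ones below 0.

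Many SR and hnRNP transcripts carry exons that send them to nonsense-mediated decay. Of the 13 tested genes of that pathway none passed in the edgeR test, against 5.08% of all tested genes. At an unadjusted p under 0.05 there were 2, the DESeq2 Wald test called 2 (Upf3b and Casc3), and the median was 0.03. Upf3b, which links the exon junction complex to the decay factors, stood at -0.27 ± 0.07 (adjusted p = 0.0547), Casc3, of the exon junction complex, at 0.39 ± 0.12 (adjusted p = 0.0801) and Magohb, of the same complex, at -0.35 ± 0.19 (adjusted p = 0.286). Upf3b passed without untreated animal 4 (adjusted p = 0.0375) or untreated animal 5 (adjusted p = 0.0384), with library totals (0.0442), with a mean count of at least 50 (0.0430) and with the span trend removed (0.0418). Casc3 passed without untreated animal 5, at 0.51 (adjusted p = 0.00881). The fits without untreated animal 4 and without untreated animal 5 called 13.1% and 7.61% of all tested genes. The values here are totals per gene, so no count of exon or isoform use was made.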

How the data were processed

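The authors deposited estimated counts per gene (RSEM expected counts, with decimals and without normalization, per the file headers) and a normalized signal made from them. Per the submitters' processing notes the tools were bcl2fastq 2.17, Bowtie2 2.1.0, RSEM 1.2.15 and edgeR, with genome build rn6, and the gene annotation is not given in the sources used here. Per the labels' protocols, RNA was column purified and libraries were made with a stranded mRNA kit.

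Columns were matched to samples by title. Expected counts were rounded and filtered with filterByExpr by group, then tested with edgeR 4.0.16 (R 4.3.3), using TMM scaling, the quasi-likelihood test, all 10 samples and no covariate. CPM refers to tested genes, with a prior count of 2 on the log2 scale. Standard errors are the size of the log2 fold change over the square root of F. The deposited signal served only for limma trend fits. The procedure was tested on simulated data.

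The members and lists were chosen with earlier results of these data known. Named with values for every animal were each called member, the 5 members of each family with the smallest p and those with the largest estimate in each direction. From each context list the called genes and the 3 with the smallest p were named, some by group means or estimates. Hnrpd, Snurf, Srpk3, the LSm ring genes other than Lsm5 and the markers given by value were named after their values were seen. Animals are separate, per the labels, and same-numbered animals were not paired. Among 20 pairs of libraries within groups, chi-square per degree of freedom was 4.73 to 38.1, so no pair was treated as a duplicate. A floor of 3 counts corresponded to 0.268 to 0.343 CPM and covers counting error only. Promoters matched by symbol for 38 of 38 members. Since the gene table is on another build than the counts, it was used for spans, copy symbols and promoters only. Alternatives were other scalings and filters, DESeq2 1.42.0, limma 3.58.1, sva 3.50.0, a replicate block, a ribosomal RNA covariate, removal of the span trend and leaving out each animal.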

Additional observations from a re-analysis of the deposited data

Results flagged for a closer look

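Across 80 groups of 5 animals (the 38 members, the total count and the ribosomal RNA share, each in the untreated and the RG2833 group), 4 held 1 animal whose gap to its nearest neighbour, as a share of the group's range, exceeded 0.71, and chance gives about 1 in 20. Hnrnpu was at 476 CPM in RG2833 animal 4, against 535 to 540 CPM in the other 4 animals, a gap of 0.921 of the range. Hnrnpdl was at 147 CPM in RG2833 animal 3, against 118 to 126 CPM in the others (0.730). Hnrnpl was at 377 CPM in untreated animal 2, against 298 to 320 CPM (0.723). Srsf7 was at 42.3 CPM in untreated animal 3, against 49.2 to 51.8 CPM (0.730). These 4 values came from 4 different animals, and none of the 4 genes passed the treatment test.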

How the results depend on the processing

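The calls of Snrpd2 and Snrpg held in 10 of 12 other fits. None of the 31 genes followed changed sign in any fit. They were chosen from these same data by p or estimate, and the fits share most libraries, so this is no support for them. The median of the Hnrnp genes did change sign, from -0.0098 to 0.0245 with the ribosomal RNA covariate and 0.0275 without untreated animal 2. Members called numbered 7 by DESeq2's Wald test (2 Srsf, 2 Hnrnp and 3 Snrp; 1286 genes in all), 6 at an adjusted p under 0.1 (2 Srsf, 1 Hnrnp; 1466 in all), 3 with a mean count of at least 50 (1 Srsf), and 0 with the ribosomal RNA covariate (0 Snrp; 2 genes in all) or 1 surrogate variable (0 Snrp; 5 in all; the median of the Hnrnp genes moved to -0.065). Leaving out 1 animal gave 1 to 5 members (0 to 2 Srsf, 1 to 3 Snrp), and 98 to 1556 genes in all. Hnrnp genes gave 0 calls in each of these 10 fits. The cause of these differences was not tested. Same-numbered animals did not deviate together (correlations -0.32 to 0.15, mean -0.07; 1 of 10 animals correlated best with its own number). With the replicate block 2 members and 180 genes passed, and Sf3b5, Sf1, Elavl3, Rbfox3, Rbm38 and Srpk1 lost their calls. Sf1 also lost its call with DESeq2 size factors, library totals, no filter and a mean count of at least 50, and Srpk1 with library totals. With 5 animals a group, a p that did not pass does not show that a gene did not differ.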
